A study of Equus caballus with 20 samples.

Results

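The comparison described here set gluteus medius RNA of French Trotters with recurrent exertional rhabdomyolysis (RER) against a pool of control gluteus RNA. It comprised every array whose label names the gluteus muscle, 10 of the 20 arrays of the study. The RER group held 5 affected horses with high plasma activities of muscle enzymes, and the control group was 1 pool made from 10 sound horses. Each RER horse was hybridised against that pool on 2 arrays with the dyes exchanged, so that its RNA carried Cy3 on one and Cy5 on the other. The remaining 10 arrays did the same in the longissimus lumborum of the back. Age and sex of the horses are not used here, and no treatment is named for either group.

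RER is a disorder in which exercise is followed by stiffness and by breakdown of muscle fibres, whose enzymes then leak into the blood. The gluteus medius is the large propulsive muscle of the hindquarter and is rich in fast fibres. In such fibres an action potential opens the ryanodine receptor of the sarcoplasmic reticulum, the released calcium binds troponin C, and the SERCA pump returns it to the store. Contraction and pumping are paid for by ATP from glycogen breakdown, glycolysis and the mitochondria, with creatine kinase as the short-term buffer. The study named energy metabolism and calcium regulation as its themes.

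The values are log2 ratios of the 2 channels as deposited. RER over control pool is the likely direction, because the RER RNA is channel 1 of every array and 2-colour ratios usually put the sample on top. The labels do not state it, and it is not settled, since arrays of different horses with the same dyes against the same pool ran opposite ways (horses 2 and 4 on their Cy3 arrays correlated at -0.34 over probes). With every sign turned, each size below stays as it is and the counts above and below 0 change places. A ratio gives no level, so the tissue could not be checked against muscle markers, although Acta1, Ckm, Mb, Des, Tnnt1 and Tnnt3 all gave ratios. The pool is 1 control sample, so the spread from control horse to control horse is in no test, and anything particular to the pool enters all 5 horses. In whole muscle, fewer cells of a type and less RNA per cell cannot be told apart.

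The arrays held 9590 to 24023 values for 24493 probes. Horses 1, 2 and 3 lay on arrays with at least 22032 values, and horses 4 and 5 on arrays with 17708 at most. Gene symbols are written in the mouse style or, for 211 symbols, in capitals, and capital symbols had 12 or 13 values on each array of horses 1 to 3 but 147 to 200 on each array of horses 4 and 5. Muscle genes printed in capitals (ATP2A1, CKM, PFKM, LDHA, COL1A1, HSPA5) therefore have values in horses 4 and 5 alone. Entries of the same genes in the mouse style, such as Atp2a1, Ckm, Pfkm and Hspa5, were kept as separate features. The values given below are those of the mouse-style entries. Over all features the horse means fell into the same sets. Horses 4 and 5 correlated at 0.41, horses 2 and 3 at 0.25, and horse 4 correlated at -0.41 with horse 2 and at -0.37 with horse 3. Over probes, the negative values of horse 4 came mainly from 1 array each of horses 2 and 3. Both horse 4 arrays correlated below 0 with the Cy3 array of horse 2 (-0.341 and -0.454), but not with its partner (0.008 and 0.166). For the Cy5 array of horse 3 they stood at -0.435 and -0.273, and for its partner at -0.004 and -0.002. The Cy3 array of horse 2 and the Cy5 array of horse 3 correlated at 0.261, their partners at 0.129. These are correlations across features or probes that share the pool, and these are not independent replicates.

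Of the 10 arrays, 2 ran against their partners and against horse 1 for large ratios, and they bear on every result. The 2 arrays of a horse correlated at 0.30 in horse 1, 0.53 in horse 4 and 0.31 in horse 5, but at -0.21 in horse 2 and -0.27 in horse 3. The Cy3 array of horse 2 and the Cy5 array of horse 3 were the ones out of step with horse 1. Among 89 features at least 2-fold from the pool in the same direction on both arrays of horse 1, the Cy5 array of horse 2 had the sign of horse 1 for 86 of 86 with a value, and the Cy3 array of horse 3 for 86 of 88. The Cy3 array of horse 2 had that sign for 4 of 88, and the Cy5 array of horse 3 for 3 of 88. Where these last arrays were themselves at least 2-fold from the pool, they had the opposite sign for 56 of 56 and for 55 of 55 such features. The arrays of horses 4 and 5 shared the sign of horse 1 for between 34 of 81 and 33 of 67 features with a value. For 189 features chosen in the same way in horse 4, the Cy3 array of horse 2 shared the sign for 21.4% and the Cy5 array of horse 3 for 25.6%, while the arrays of horse 5 did so for 76.8% and 75.8%. For 150 features chosen so in horse 5, the Cy3 array of horse 2 shared the sign for 34.8% and its partner for 48.9%. The Cy5 array of horse 3 did so for 43.9% and its partner for 47.7%, so the contrast was weaker there. The labels give no reason, and none was tested. The 2 arrays are called the opposed arrays below, and the main counts and list counts are given with them and without them. Over all genes with a symbol, the background for the gene lists, means were below 0 for 54.6% with all arrays (median -0.01) and for 50.3% without the opposed ones (median -0.0013).

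With all 10 arrays, 0 of 13612 features (0.0%) differed between RER horses and the pool by limma with Benjamini-Hochberg adjustment at 0.05. A feature is a gene, or a probe without a gene symbol, with a value in at least 4 of the 5 horses. No adjusted p was under 0.86. Before adjustment, 358 features above 0 (2.63%) and 361 below (2.65%) had a p under 0.05, 719 in all (5.28%). Limma without variance moderation also called 0, with 806 under that limit. Over all features, means were above 0 for 48.2% and below 0 for 51.8%. The median standard error over features was 0.0874 on the log2 scale, and 97.9% of the 95% confidence intervals lay inside a 2-fold change. Both rest on horse means, in which large ratios of the opposed arrays and their partners can cancel. Ebna1bp2, at 2.44 and -2.49 on the arrays of horse 2, had a mean of -0.03 there. The intervals therefore do not show that 2-fold differences were absent. Of 8402 features measured in all 5 horses, 336 (4.0%) were above 0 in every horse and 255 (3.03%) below. A missed call does not show that RER and control muscle were alike, and with 5 horses the number of animals limits the precision.

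Without the opposed arrays, 24 of 13622 features passed (0.176%), 4 above 0 (0.0294%) and 20 below (0.147%), of which 9 had a gene symbol. This setting was chosen after the data were seen, and the arrays were picked by how they correlate with the others, which by itself raises the agreement between horses. It is therefore no independent evidence for the genes it calls. Horses 2 and 3 then rest on 1 array each, in which a dye effect does not cancel. Turning the 2 arrays instead of leaving them out called 35 of 13612 (0.257%), 7 above 0 (0.0514%) and 28 below (0.206%), 23 of them shared with the 24. Fewer features passed with the opposed arrays out and 1 further horse left out: 3, 6, 2, 1 and 3 without horses 1 to 5. Each of these fits had 1 horse fewer, and those without horses 4 and 5 tested 20813 and 20778 features. The lower counts therefore cannot show whether the calls depended on particular horses. With all 5 horses and before adjustment, 637 features above 0 (4.68%) and 941 below (6.91%) had a p under 0.05, and means were below 0 for 48.8% of all features. Of 8407 features measured in all 5 horses, 533 (6.34%) were above 0 in every horse and 620 (7.37%) below.

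Ebna1bp2, a nucleolar factor needed to assemble the large ribosomal subunit, had the smallest adjusted p of the genes with a symbol. Its log2 ratios, Cy3 array before Cy5 array, were -1.96 and -2.31 in horse 1, 2.44 and -2.49 in horse 2, -2.28 and 1.83 in horse 3, -1.56 and -2.69 in horse 4 and -1.44 and -2.23 in horse 5. The other 8 arrays were all below 0, and the 2 opposed arrays stood about as far above it. The mean was -1.27 with all arrays (adjusted p = 0.86 by limma) and -2.17 ± 0.24 without the opposed ones (SD, n = 5, adjusted p = 0.00082 by limma). That call ended when horse 4 was also left out (adjusted p = 0.0506 by limma, 20813 features tested). It held without each of the others.

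Nisch encodes nischarin, an imidazoline-binding protein that restrains cell migration. It had ratios of -1.08 and -1.59 in horse 1, 1.70 and -1.68 in horse 2, -1.71 and 1.89 in horse 3, -1.55 and -2.46 in horse 4 and -2.14 and -2.33 in horse 5. Its mean was -1.10 with all arrays and -1.79 ± 0.35 without the opposed ones (SD, n = 5, adjusted p = 0.0092 by limma). Qpctl, a Golgi glutaminyl cyclase, was smaller and tighter, at -0.69 ± 0.06 without the opposed arrays (SD, n = 5, adjusted p = 0.019 by limma) and -0.39 with them. The 1 gene with a symbol above 0 was Ift88, a component of the transport particles that build cilia, at 1.40 ± 0.10 (SD, n = 4, adjusted p = 0.0092 by limma) against 0.77 with all arrays.

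The other called genes with a symbol, all below 0, were Ceacam19 at -1.04, the synaptotagmin Syt3 at -1.64, the lysophosphatidic acid receptor Lpar1 at -1.37, Il17rd, which dampens fibroblast growth factor signalling, at -1.17 and the neurexophilin Nxph3 at -0.89. Their adjusted p-values by limma ran from 0.011 for Ceacam19 to 0.049 for Lpar1. Nxph3 differed from the rest in that both opposed arrays were on the side of the others, at -0.13 and -0.07. These names were chosen after their values were seen, and none of the 9 is on the lists of calcium handling, contractile or energy genes described next.

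**Figure D1:**
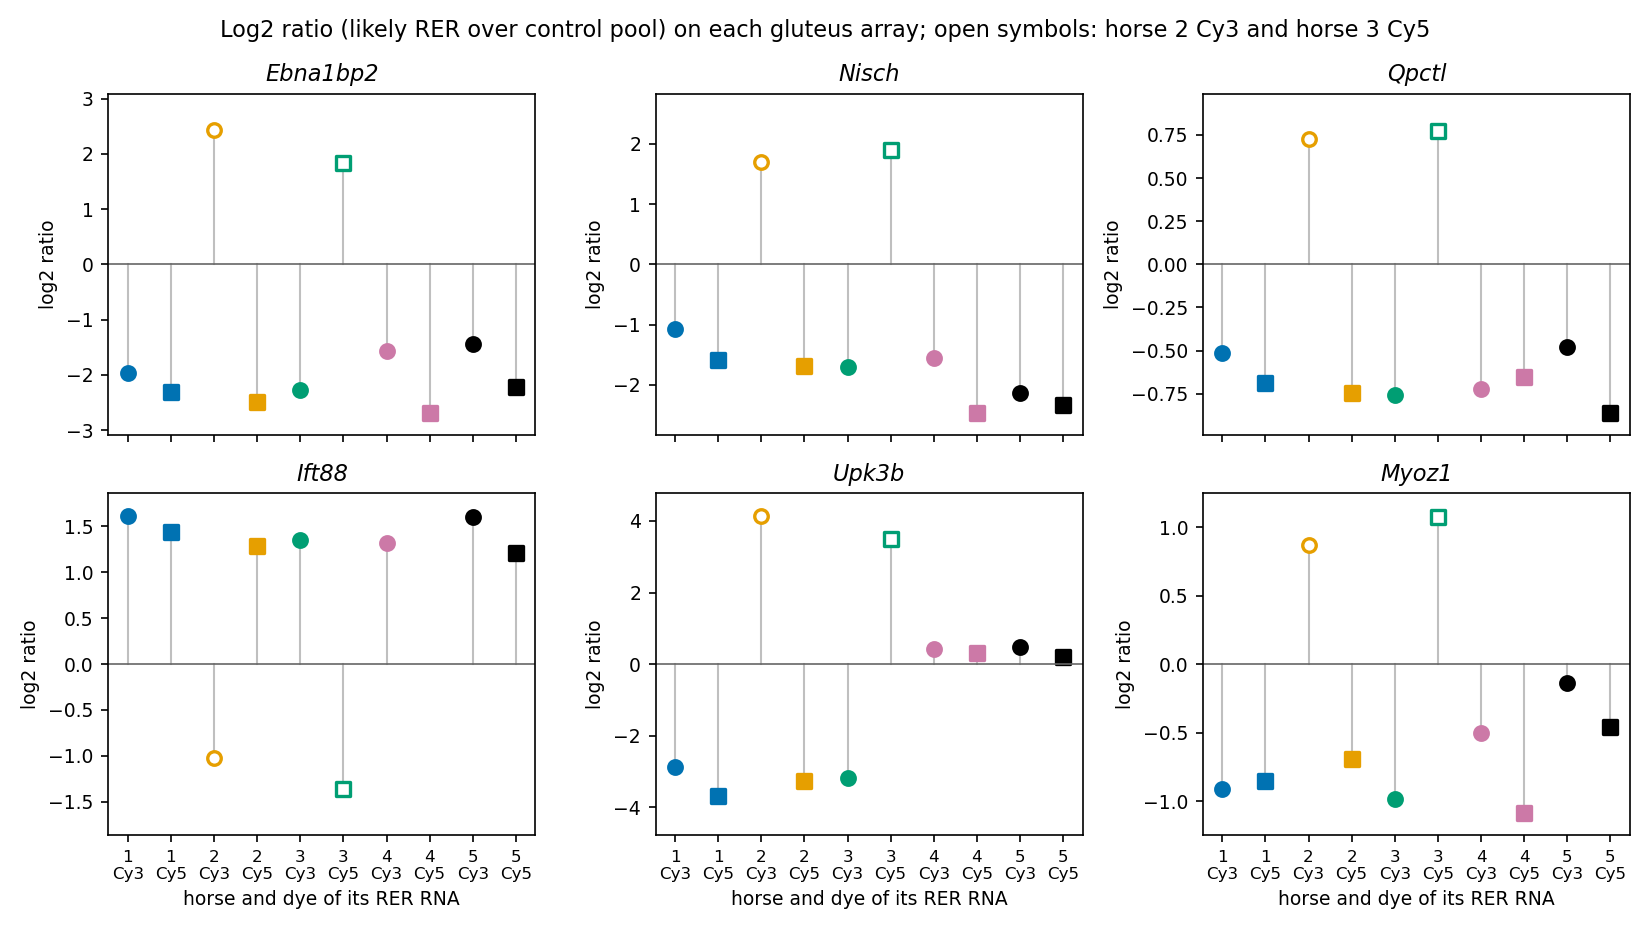
Log2 ratio (vertical axis, likely RER over control pool) of 6 genes on each of the 10 gluteus arrays (horizontal axis: horse and dye of its RER RNA). Circles are Cy3 arrays, squares Cy5 arrays, and open symbols the opposed arrays, which stand across the 0 line from the other arrays of horses 1 to 3 in every panel.

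The longissimus arrays of the same 5 horses had no part in choosing these genes, but they are not independent support, because the horses are the same. The 2 longissimus arrays of horse 1 correlated at -0.27 and those of horse 2 at -0.32, so the direction of those arrays is not settled either. Nisch was below 0 on both arrays of horses 1, 3, 4 and 5, from -0.09 to -1.66, and at 2.25 and 0.91 in horse 2. Ebna1bp2 was smaller there, at -1.01 and -0.53 in horse 1, 0.71 and 0.52 in horse 2, -0.18 and -0.67 in horse 3, -0.37 and -1.04 in horse 4 and 0.64 and 0.03 in horse 5. The other 7 genes had longissimus means of 0.50 for Ift88, 0.22 for Il17rd, which had values in horses 1 and 2 alone, and -0.14 for Lpar1 to -0.51 for Syt3 in the remaining 5. In horse 2 both longissimus arrays had the sign opposite to the gluteus mean for all of the 9 genes but Nxph3, and no reason for this was tested.

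Calcium handling genes showed no difference that passed. Of 20 tested genes of calcium release, pumping and buffering, 6 were above 0 and 14 below, with a median of -0.06, beside 54.6% below over genes with a symbol. Without the opposed arrays the split was 8 above and 12 below (60.0%), with a median of -0.05 and 0 called, beside 50.3% below over genes with a symbol. Casq1, the calcium-binding protein of the fast fibre store, had ratios of -0.99 and -0.76 in horse 1, 0.86 and -0.54 in horse 2, -0.45 and 1.02 in horse 3, -0.59 and -0.38 in horse 4 and 0.02 and 0.19 in horse 5. It thus lay below 0 on every array of horses 1 to 4 but the opposed ones, and about at 0 in horse 5. Its mean was -0.16 ± 0.50 with all arrays and -0.45 ± 0.35 without the opposed ones (SD, n = 5), where it did not pass (adjusted p = 0.31 by limma).

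The release channel Ryr1 averaged 0.17 ± 0.21 and the fast SERCA pump Atp2a1 0.08 ± 0.13 (SD, n = 5 each), both within their spread over horses. The 2 probes of Ryr1 disagreed, and the one measured in all 5 horses averaged -0.01. Atp2a2, the slow SERCA pump, stood at -0.06 and Hrc, a calcium-binding protein of the store, at -0.14. Among 11 genes of calcium entry and extrusion, 7 were above 0 and 4 below, and 8 above and 3 below without the opposed arrays. Stim1, the sensor that reports an empty store, was at -0.23 ± 0.16 (SD, n = 4), and its partner channel Orai1 at 0.04 ± 0.11 (SD, n = 5).

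Calm2, 1 of the genes for the calcium sensor calmodulin, was the calcium gene of smallest p. Its horse values were -0.54, -0.41, -0.49, -0.33 and -0.22 in horses 1 to 5, and all 10 arrays were below 0, the opposed ones at -0.12 each. The mean was -0.40 ± 0.13 (SD, n = 5, adjusted p = 0.86 by limma) and -0.53 without the opposed arrays (adjusted p = 0.19 by limma). The calmodulin gene Calm3 was at -0.09, with 2 probes that disagreed. Of 21 genes of calmodulin, CaM kinase and calcineurin, 9 were above 0 and 12 below, with a median of -0.02, and 10 above and 11 below without the opposed arrays.

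Fast fibre sarcomere genes had the most negative median of all lists, with all arrays and without the opposed ones. The 6 tested members, 1 above 0 and 5 below in both settings, had a median of -0.14 with all arrays and -0.49 without the opposed ones, and 0 were called in either. By array their median was -0.82 and -0.79 in horse 1, 0.99 and -0.77 in horse 2, -0.46 and 1.03 in horse 3, -0.44 and -0.41 in horse 4 and 0.07 and -0.11 in horse 5. Horses 1 to 4 were thus low on all but the opposed arrays, and horse 5 was near 0. Without horse 1, the median of the list over the opposed and other arrays was 0.05, on the other side of 0.

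Myoz1, which ties calcineurin to the Z-disc of fast fibres, was at -0.37 ± 0.45 with all arrays and -0.73 ± 0.26 without the opposed ones (SD, n = 5, adjusted p = 0.089 by limma). The fast troponin T gene Tnnt3 was at -0.16 ± 0.49 and -0.52 ± 0.42 in the same settings, and the fast troponin C gene Tnnc2 at -0.20 ± 0.51 and -0.36 ± 0.42 (SD, n = 5 each). The fast troponin I gene Tnni2 was the member above 0, at 0.14 ± 0.27 (SD, n = 4). Of 9 slow fibre genes, 3 were above 0 and 6 below in both settings, with a median of -0.04 with all arrays and -0.10 without the opposed ones. Tnni1, the slow troponin I gene, stood at 0.22 ± 0.25 and Myh7, the slow myosin heavy chain, at -0.09 ± 0.30 (SD, n = 5 each). The 24 genes of the Z-disc and filament scaffold split 12 and 12 in both settings.

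**Figure D2:**
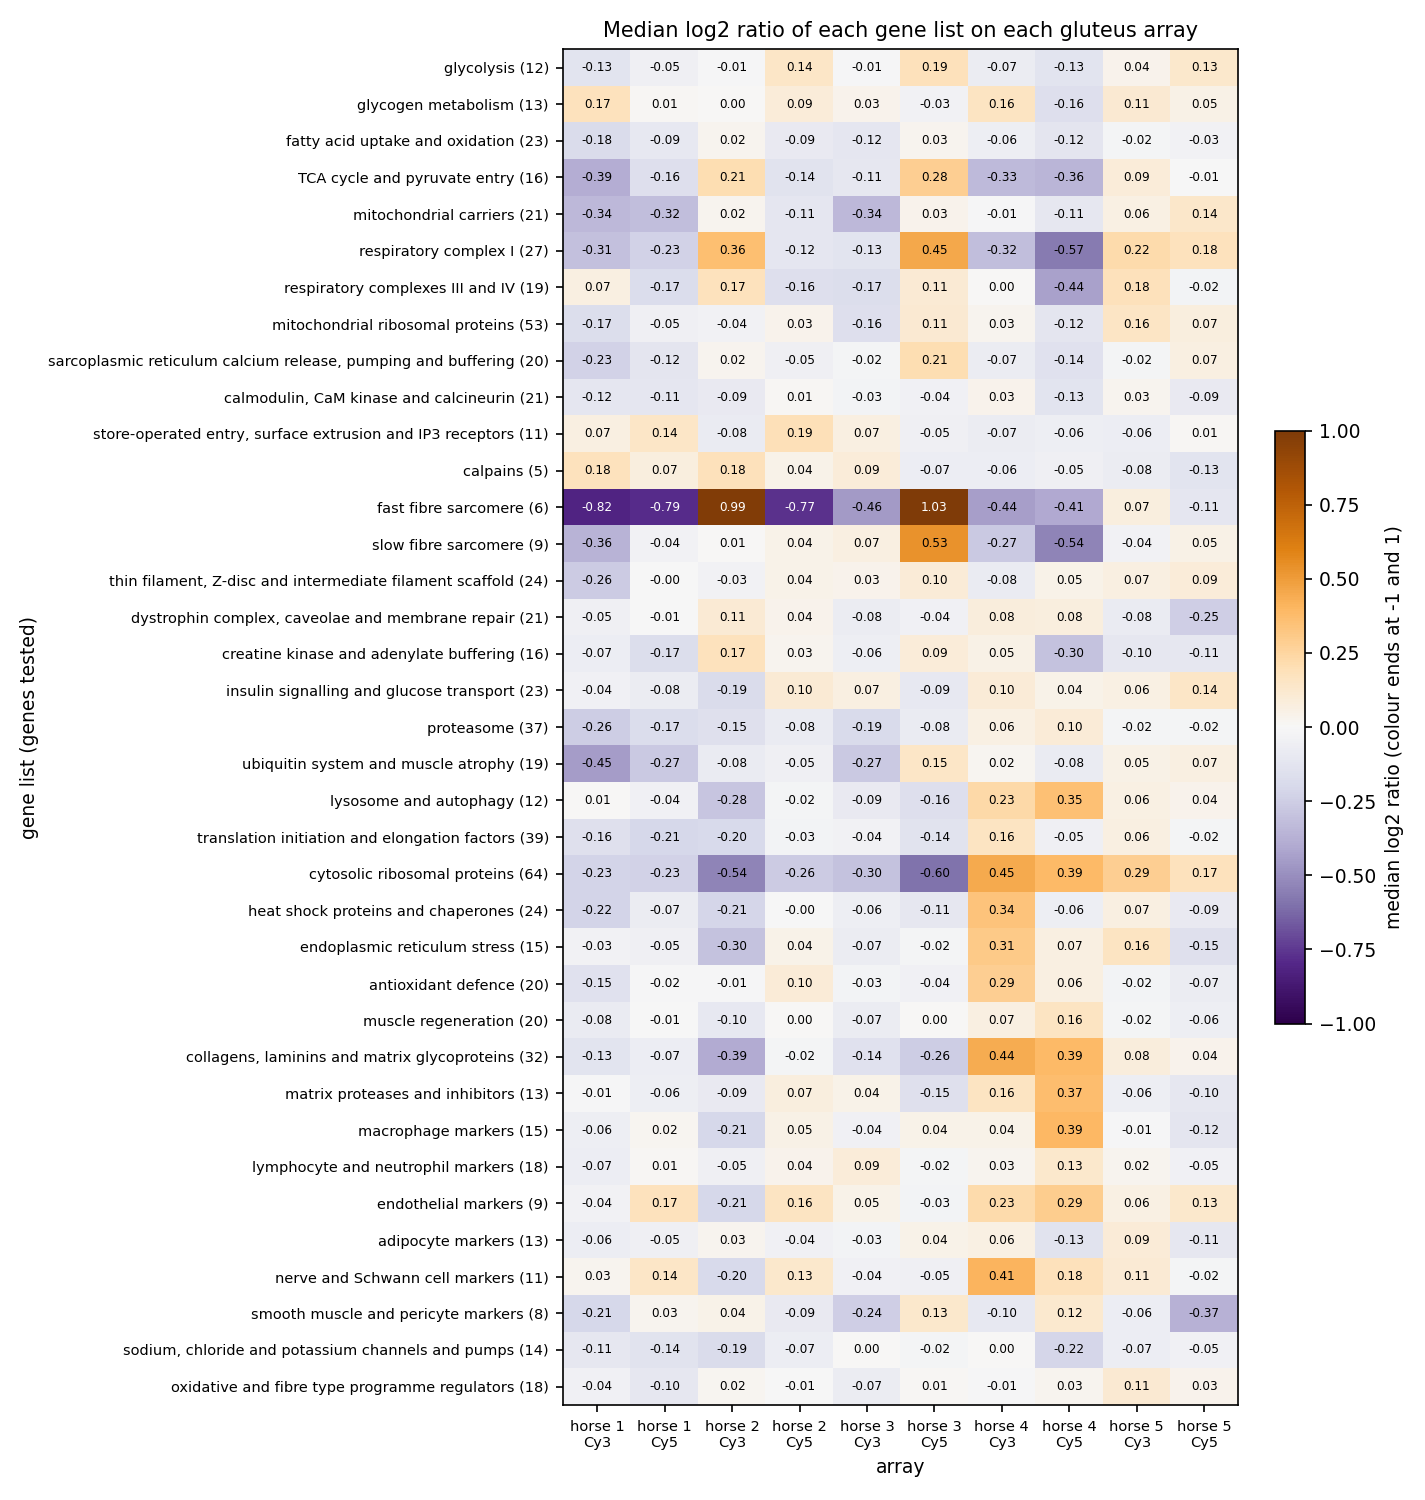
Median log2 ratio (colour and printed value, likely RER over control pool) of each gene list with at least 5 tested genes (down the page, number of genes in brackets) on each gluteus array (across, by horse and dye of its RER RNA). Fast fibre genes lie between -0.46 and -0.82 on the other arrays of horses 1 to 3 and at 0.99 and 1.03 on the opposed ones, whereas cytosolic ribosomal protein genes have 1 sign within each horse.

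Genes of mitochondrial energy supply had more members below 0 than above, with 0 called, beside 54.6% below over genes with a symbol with all arrays and 50.3% without the opposed ones. Respiratory complex I, the entry point of electrons from NADH, had 10 of 27 tested genes above 0 and 17 below with all arrays, and 6 above and 21 below without the opposed ones. Its median was -0.04 in the first setting and -0.16 in the second. In horses 1 to 5 the second setting gave medians of -0.34, -0.12, -0.13, -0.49 and 0.19, so that horse 5 stood on the other side from the rest. The TCA cycle, which feeds that chain, had 3 of 16 genes above 0 and 13 below in both settings, with a median of -0.05 with all arrays and -0.17 without the opposed ones. Complexes III and IV had 8 of 19 above 0 and 11 below, and 5 above and 14 below without the opposed arrays. With all arrays the side of 0 on which these medians lay rested on single horses. Without horse 1 the median was 0.012 for complex I, 0.008 for complexes III and IV, 0.0037 for the TCA cycle and 0.001 for the mitochondrial carriers, each on the other side of 0 from its value with all horses. Without horse 4 complex I was at 0.07, and complexes III and IV were at 0.02 without horse 3 and 0.04 without horse 4.

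Among single genes of the chain, Uqcrb of complex III was at -0.35 ± 0.34 with all arrays and -0.52 ± 0.23 without the opposed ones (SD, n = 5, adjusted p = 0.17 by limma). Sdhc and Sdhb, subunits of succinate dehydrogenase, were at -0.31 ± 0.18 and -0.12 ± 0.32, and at -0.34 ± 0.14 and -0.38 ± 0.26 without the opposed arrays (SD, n = 5 each). The probes of Sdhc differed by horse, so its mean joins unlike values. Slc25a4, which exchanges ADP for ATP across the inner membrane, was at -0.11 and -0.48 in the same order of settings, above 0 on both arrays of horse 5 (0.52 and 0.65). Of 21 mitochondrial carriers, 4 were above 0 and 17 below, and 3 above and 18 below without the opposed arrays.

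Fatty acid uptake and oxidation had 5 of 23 genes above 0 and 18 below in both settings, with medians of -0.09 and -0.10. Cpt1b, which loads long-chain fatty acids for entry into mitochondria, was at -0.26 ± 0.29, and Lpl, the lipase that frees them from blood lipoproteins, at -0.18 ± 0.25 (SD, n = 5 each). Without the opposed arrays they were at -0.36 and -0.40, and neither passed. Glycolysis split 5 above and 7 below with a median of -0.03, and its sign turned to 0.04 without the opposed arrays. Pgam2, the muscle phosphoglycerate mutase, was at -0.16 ± 0.41 and Pfkm, the muscle phosphofructokinase, at 0.15 ± 0.14 (SD, n = 5 each).

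In glycogen metabolism, 9 of 13 genes were above 0 and 4 below in both settings, with a median of 0.05 with all arrays and 0.08 without the opposed ones. Phkb, a subunit of the kinase that activates glycogen phosphorylase, was at 0.28 ± 0.31 (SD, n = 4), but 1 of its probes had values in horses 1 and 3 alone (mean 0.45) and the other in horses 4 and 5 alone (mean 0.10). The phosphorylase Pygm was at 0.08 ± 0.13 (SD, n = 4) and the glycogen synthase Gys1 at 0.07 ± 0.20 (SD, n = 5). Of 16 genes of creatine kinase and adenylate buffering, 7 were above 0 and 9 below, and 5 above and 11 below without the opposed arrays. The muscle creatine kinase Ckm was at -0.04 ± 0.35 and the brain form Ckb at -0.40 ± 0.33 (SD, n = 5 each). Prkab2, a subunit of the energy sensor AMPK, was at -0.37 ± 0.33 with all arrays and -0.64 ± 0.40 without the opposed ones (SD, n = 5).

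**Figure D3:**
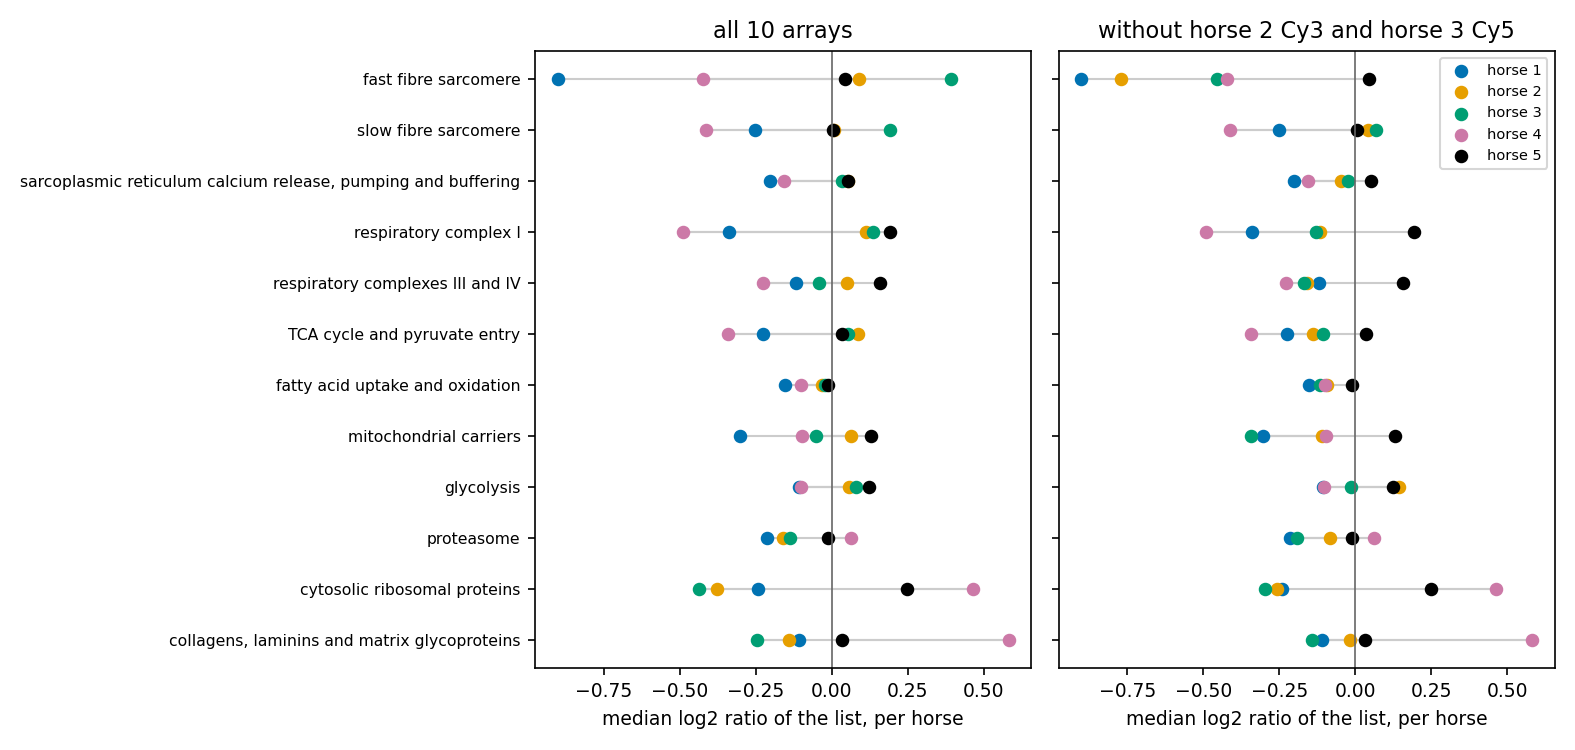
Median log2 ratio (horizontal axis, likely RER over control pool) of the tested members of 12 gene lists (down the page) in each RER horse, with all 10 gluteus arrays on the left and without the 2 opposed ones on the right. Points are horses and lines span their range; fast fibre genes in horse 2 stand at -0.77 without the opposed arrays and at 0.09 with them.

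Genes of protein synthesis and turnover had 0 called, beside the same shares below 0 over genes with a symbol. The proteasome, which degrades tagged proteins, had 8 of 37 genes above 0 and 29 below with all arrays, and 10 above and 27 below without the opposed ones, with medians of -0.10 and -0.08. With all arrays its median was -0.21, -0.16 and -0.14 in horses 1, 2 and 3 but 0.06 and -0.01 in horses 4 and 5, and over horses 4 and 5 alone it was 0.05, on the other side of 0. Its subunit Psmb5 was above 0 in every horse at 0.22 ± 0.12, and Psmd1 below at -0.21 ± 0.12 (SD, n = 5 each). Of 39 translation factors 14 were above 0 and 25 below, and 18 above and 21 below without the opposed arrays. Eif4a2, a helicase of translation initiation, was at -0.40 ± 0.26 (SD, n = 5), below 0 in every horse. Genes of the ubiquitin system and muscle atrophy had 4 of 19 above 0 and 15 below in both settings, whereas lysosome and autophagy genes had 7 of 12 above 0 and 5 below, and 6 on each side without the opposed arrays. The muscle ubiquitin ligases Trim63 and Fbxo32 were at -0.05 ± 0.29 (SD, n = 5) and -0.04 ± 0.16 (SD, n = 4). The 2 probes of Trim63 disagreed in horse 1, at -0.43 and 0.27. The first averaged -0.13 over 5 horses, and the other had values in horses 1 to 3 alone (mean 0.25).

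Cytosolic ribosomal protein genes split the horses as the number of values per array did. Of 64 tested, 17 were above 0 and 47 below, and 26 above and 38 below without the opposed arrays, but with all arrays their median was -0.24, -0.38 and -0.44 in horses 1, 2 and 3 and 0.46 and 0.25 in horses 4 and 5. Both arrays of each horse shared that sign, the opposed arrays included, at -0.54 in horse 2 and -0.60 in horse 3. Horses 1 to 3 are those on arrays with many values, so the number of values and the horse cannot be told apart here. The mean over the 5 horses joins both signs.

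Genes of the fibre membrane were spread around 0. The dystrophin complex, caveolae and membrane repair list had 8 of 21 genes above 0 and 13 below, with a median of -0.02, and 9 above and 12 below without the opposed arrays. The syntrophin Sntb1, which docks signalling proteins on dystrophin, was at -0.29 ± 0.39 with all arrays and -0.45 ± 0.21 without the opposed ones (SD, n = 5). The caveolar protein Cav3 was at -0.02 ± 0.23 (SD, n = 5) and the membrane repair protein Dysf at -0.02 ± 0.16 (SD, n = 4). Of 14 channel and pump genes 4 were above 0 and 10 below in both settings, with the muscle chloride channel Clcn1 at -0.07 ± 0.21 and the muscle sodium channel Scn4a at -0.09 ± 0.45 (SD, n = 5 each).

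Calpains are calcium-activated proteases, and 3 of 5 tested were above 0 in both settings. The muscle calpain Capn3 had ratios of -0.56 and -0.27 in horse 1, 0.18 and -0.15 in horse 2, -0.30 and 1.20 in horse 3, -0.39 and -0.50 in horse 4 and -0.22 and -0.36 in horse 5. It was thus below 0 on all but the opposed arrays, with a mean of -0.14 ± 0.38 with them and -0.32 ± 0.12 without (SD, n = 5, adjusted p = 0.23 by limma). Insulin signalling and glucose transport had 13 of 23 genes above 0 and 10 below, and 14 above and 9 below without the opposed arrays. Grb14, an adaptor that restrains the insulin receptor, was at 0.40 ± 0.13 (SD, n = 4). Rheb, the GTPase that switches on mTORC1, was at -0.38 ± 0.39 with all arrays and -0.62 ± 0.20 without the opposed ones (SD, n = 5, adjusted p = 0.085 by limma).

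Stress genes did not pass either. Of 24 heat shock and chaperone genes 5 were above 0 and 19 below, and 9 above and 15 below without the opposed arrays. With all arrays their median was -0.161, -0.185 and -0.127 in horses 1, 2 and 3 but 0.069 and 0.003 in horses 4 and 5. Without the opposed arrays horses 2 and 3 stood at -0.0005 and -0.058. Over horses 4 and 5 alone the median was 0.065, on the other side of 0. Cryab, the small heat shock protein that guards desmin, had horse 1 at -1.05 and -1.40 and horses 4 and 5 between 0.16 and 0.36. Hspa5, the main chaperone of the endoplasmic reticulum, was at 2.70 and 1.30 in horse 4, at -2.44 on the opposed array of horse 2 and at -2.20 on that of horse 3. The remaining arrays lay between -0.80 and 0.20. The antioxidant list split 8 above and 12 below, and 11 above and 9 below without the opposed arrays, with the peroxiredoxin Prdx2 at 0.14 ± 0.08 (SD, n = 5) and the haem oxygenase Hmox1 at -0.02 ± 0.07 (SD, n = 5).

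No marker of regeneration or of other cells passed the test. The regeneration list split 10 and 10 in both settings, and the satellite cell factor Pax7 was at 0.04 ± 0.10 (SD, n = 5). Macrophage markers had 8 of 15 above 0 and 7 below in both settings, and the macrophage protein Cd68 was at -0.05 ± 0.25 (SD, n = 5). Lymphocyte and neutrophil markers had 11 of 18 above 0 and adipocyte markers 8 of 13 in both settings. Endothelial markers had 4 of 9 above 0 and nerve and Schwann cell markers 7 of 11, and 5 and 8 without the opposed arrays. Smooth muscle and pericyte markers had 1 of 8 above 0 and 7 below in both settings, with a median of -0.07 with all arrays and -0.14 without the opposed ones. Of the erythrocyte markers 2 were tested, 1 on each side.

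The 5 horses differed from each other by more than 2-fold for many genes. A gene was counted as particular to a horse where it lay at least 2-fold from the median of the other 4, with both arrays of that horse on that side of them. Horse 4 had 168 such genes above and 70 below among 4966, horse 5 had 21 and 76 among 7656, horse 1 had 42 and 27, horse 2 had 12 and 19, and horse 3 had 3 and 4. These counts are a description with no test. They are limited in horses 2 and 3, whose 2 arrays correlated below 0. Both arrays were at least 2-fold the same way for 0.0294% and 0.00735% of tested features there. The shares were 0.544%, 1.96% and 0.968% in horses 1, 4 and 5. Large ratios can also cancel in the means of horses 2 and 3. A gene shared by horses 1 to 3 can thus count as particular to horse 1. The means of horses 2 and 3 also include the opposed arrays, which often ran against horse 4. Of 189 features at least 2-fold on both arrays of horse 4, the Cy3 array of horse 2 was 2-fold for 92. It had the opposite sign for 79 of these, and the Cy5 array of horse 3 for 60 of 69. This can raise the counts of horse 4, and no counts without the opposed arrays are given. Horses 4 and 5 are also those on arrays with few values.

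In horse 4 the genes far above the other horses included collagens, an actin and a myogenic regulator. Collagen genes Col3a1 and Col1a2 were at 3.27 and 4.06, and at 3.88 and 3.39, on its 2 arrays, and Sparc, a collagen-binding glycoprotein, at 3.20 and 3.43. The fetal and cardiac actin Actc1 was at 4.23 and 5.95 in horse 4 and at 2.92 and 3.45 in horse 5. Myod1, the regulator that commits cells to muscle, was at 1.85 and 1.78, and Myog, which acts after it, at 0.79 and 1.25. The median of the matrix genes was 0.58 in horse 4 over 20 genes with a value there, and between -0.25 and 0.03 in the other horses over 31 or 32 genes. Without the opposed arrays the other horses lay between -0.14 and 0.03, with horse 2 at -0.02. Nerve and Schwann cell markers had a median of 0.50 in horse 4, with 0 of 7 below 0, and the part of other cells in these values was not tested.

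The opposed arrays mirrored horse 4 for these genes although their partner arrays did not. On the Cy3 array of horse 2, Col3a1 was at -3.33, Sparc at -3.15 and Actc1 at -5.37, against 0.36, -0.12 and 1.62 on its Cy5 array. On the Cy5 array of horse 3 the same genes were at -2.66, -3.07 and -2.82, against -0.06, -0.22 and 0.55 on its Cy3 array. For these genes the opposed arrays were thus farther from 0 than their partners, and no reason for this was tested.

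**Figure D4:**
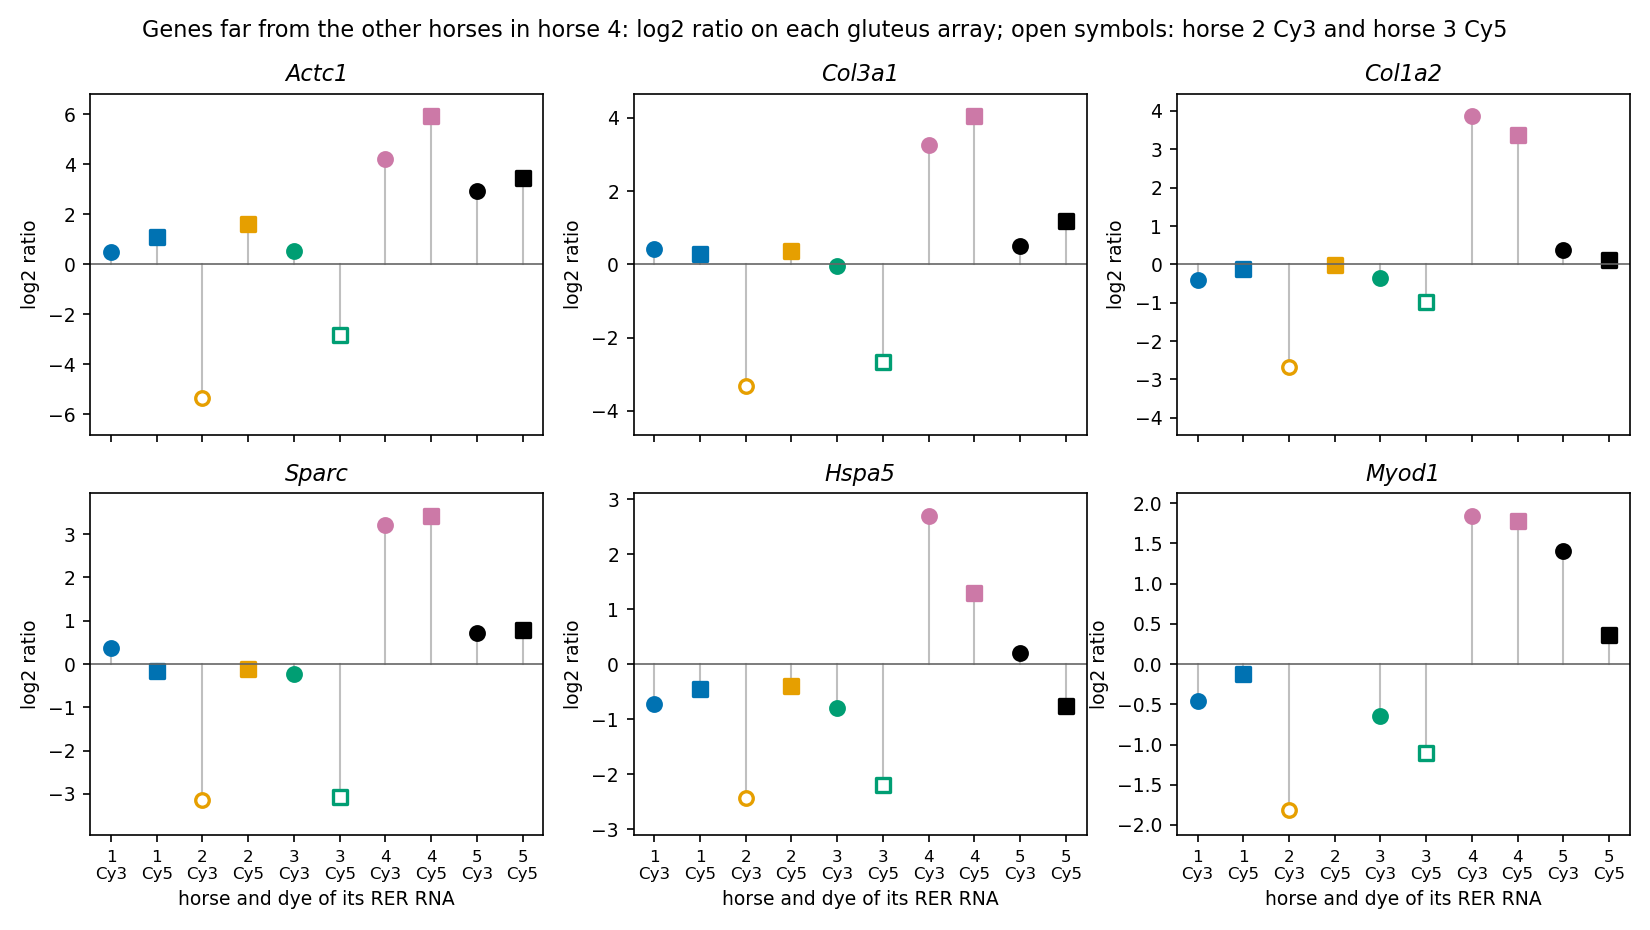
Log2 ratio (vertical axis, likely RER over control pool) of genes high in horse 4 on each gluteus array (horizontal axis: horse and dye of its RER RNA). Circles are Cy3 arrays, squares Cy5 arrays and open symbols the opposed arrays, which are low where both arrays of horse 4 are high.

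In horse 5 the genes farthest out were below the other horses. The glutathione transferase Gsta4 was at -5.05 and -4.88 and the calpain Capn8 at -5.05 and -4.51, with the other 8 arrays between -0.78 and 0.32 for both. Ptpn23, a phosphatase of endosomal sorting, was at -3.35 and -3.41, and Rwdd3, an enhancer of SUMO conjugation, at 2.64 and 3.45. Horse 1 shared its leading gene with horses 2 and 3: the uroplakin Upk3b was at -2.88 and -3.67 in horse 1, -3.27 on the Cy5 array of horse 2 and -3.19 on the Cy3 array of horse 3. It stood at 4.15 and 3.50 on the opposed arrays and between 0.18 and 0.48 in horses 4 and 5.

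Horses 4 and 5 taken alone gave 47 calls among 8679 features (0.542%) by limma, 12 above 0 (0.138%) and 35 below (0.403%), with n = 2. Adcy7, an adenylate cyclase, was at -5.33 and -4.59 in horse 4 and -5.03 and -4.22 in horse 5, but at 1.31 and 1.84 in horse 1. Anxa6, a calcium-dependent membrane-binding annexin, was at -1.85 and -1.60 in horse 4 and -2.09 and -1.95 in horse 5, and its mean was -0.05, 0.08 and 0.01 in horses 1 to 3. Above 0 were Thy1, a surface glycoprotein of fibroblasts and neurons, at 2.11 and 2.78 in horse 4 and 1.89 and 2.08 in horse 5, and the ubiquitin-activating enzyme Uba1. These 2 horses are those on arrays with few values, and of the 47 features 4 were among the 24 called without the opposed arrays. Horses 1, 4 and 5, whose 2 arrays correlated above 0, gave 2 calls of 8423 (0.0237%), both below 0, Ebna1bp2 and a probe without a symbol.

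Features with 1 sign in all 5 horses and in the mean of each dye were 263 above 0 (3.13%) and 217 below (2.58%) of 8402. The 12 genes of smallest p in each direction were chosen by that sign, so their agreement is a description, and all had an adjusted p of 0.86 by limma. Above 0 the farthest was Fndc8, a fibronectin domain protein, with horse means from 0.24 to 1.30 and an average of 0.64 ± 0.45 (SD, n = 5). Mapkapk2, a kinase downstream of p38, followed at 0.40 ± 0.30, Snx14 at 0.35 ± 0.20 and the synaptic scaffold Shank3 at 0.29 ± 0.11 (SD, n = 5 each). Klrk1, a receptor of natural killer cells, stood at 0.27 and the secreted phospholipase Pla2g12a at 0.22.

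Below 0 were Ceacam19 at -0.71 ± 0.45, the non-muscle myosin Myh10 at -0.45 ± 0.22, Calm2 and Eif4a2 as above, and the endocytic adaptor Epn1 at -0.36 ± 0.15 (SD, n = 5 each). The 2 probes of Myh10 disagreed, at -0.90 and -0.01. Itpa, which clears inosine triphosphate, and the immediate early factor Klf6 were at -0.31 each, Sgms2, a sphingomyelin synthase, at -0.30, Mtch1 of the mitochondrial outer membrane at -0.28, Vapb, a tether of the endoplasmic reticulum, at -0.25 and the ubiquitin ligase scaffold Cul1 at -0.24. For several of them the 2 arrays of horses 2 and 3 had opposite signs, as for Cenpl at 0.70 and -1.07 in horse 2.

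**Figure D5:**
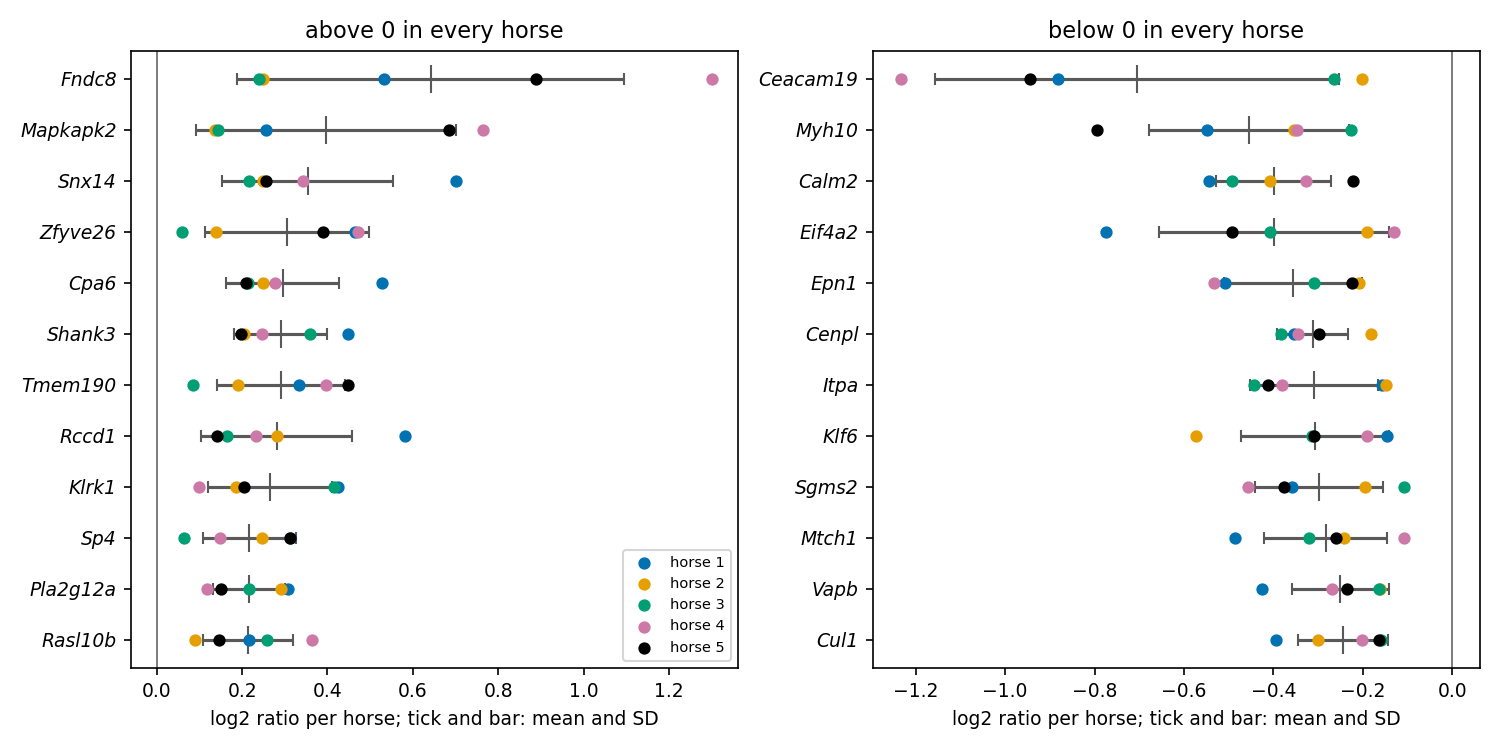
Log2 ratio (horizontal axis, likely RER over control pool) in each of the 5 RER horses for the 12 genes of smallest p in each direction among those with 1 sign in every horse. Points are horses, ticks and bars their mean and SD, and the genes were chosen for that sign, so that the absence of points across 0 is set by the choice.

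Against the longissimus ratios of the same 5 horses, gluteus gave 0 of 10176 features (0.0%) by limma with Benjamini-Hochberg adjustment at 0.05. Before adjustment 185 had a p under 0.05 (1.82%), 81 of them higher in gluteus (0.796%) and 104 lower (1.02%). With the horse as a block there were 414 of 10063 (4.11%), 187 higher (1.86%) and 227 lower (2.26%), and again 0 called, with a lowest adjusted p of 0.943. Without the 2 opposed gluteus arrays, a setting chosen after the data were seen, 399 of 10176 had a p under 0.05 and again 0 passed (lowest adjusted p = 0.157 by limma). The longissimus arrays of horses 1 and 2, whose pairs correlated below 0, were kept in each of these fits. Neb, the giant ruler of the thin filament, averaged 0.22 in gluteus and -0.22 in longissimus. Eif4h, a partner of the initiation helicase, averaged -0.41 in gluteus and 0.17 in longissimus, but its 2 arrays in gluteus horse 4 stood at 0.90 and -1.83.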

How the data were processed

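Gluteus medius RNA of 5 RER horses was hybridised against 1 pool of 10 controls on 10 two-colour arrays. Per the labels' protocols, RNA was extracted with TRIZOL, 5 µg were labelled indirectly with Cy3 or Cy5, and dye swaps were averaged. The deposited values are log2 ratios that the authors had normalized before deposit. The scanner, the background correction, the normalization and the filter that left blanks are not given in the sources used here. That they are log2 follows from their floor of -6.64, the log2 of 0.01.

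Of 24493 probes, 13692 carry 1 gene symbol in the platform annotation and 10801 none. No probe sequences are used here. Each array was centred on its median, the 2 arrays of a horse were averaged where both had a value, and probes were averaged by symbol. Features with at least 4 of 5 horses (7702 with a symbol, 5910 without, 1108 averaging several probes) entered a two-sided test of the horse values against 0 (limma 3.58.1, R 4.3.3, eBayes moderation, Benjamini-Hochberg at 0.05). The steps were tested on simulated data.

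Genes named in the text were those past the threshold, the 12 of smallest p in each direction with 1 sign in every horse and dye, a panel of muscle genes, up to 3 per list by p, up to 6 per horse far from the others, and 6 in each direction for gluteus minus longissimus. Exceptions are stated where they occur. The members, gene lists and panel were chosen with earlier results of these data known, and the settings without or with turned opposed arrays after the data were seen. Other settings varied the centring, scaling, minimum number of horses, probe averaging, dyes and horses.

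Titles name the same horses in both muscles, and the deviations of a horse in 1 muscle and in the other correlated at 0.58 in horse 1, 0.30 in horse 2 and between -0.10 and 0.02 in horses 3, 4 and 5.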

Additional observations from a re-analysis of the deposited data

Results flagged for a closer look

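In each group of 5 horse values, a horse was picked out where its gap to the nearest other horse, divided by the range, passed Dixon's 95% critical value. Chance picks about 1 in 20. It happened for 4 of 37 gene lists (10.8%) and for 5 of 99 named genes (5.1%). Rwdd3 and Gsta4, described above as far out in horse 5, are not among those 5. The share for genes is therefore not a rate over every gene named in the text. All values are log2 ratios as deposited, with all 10 arrays.

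Horse 4 stood above the other horses in the median of 3 lists. Nerve and Schwann cell markers were at 0.503, matrix proteases and inhibitors at 0.272 and endothelial markers at 0.155, with 7, 8 and 4 members measured in that horse. Horse 1 stood below the others in translation initiation and elongation factors, at -0.184.

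Among single genes, horse 1 was far above the others for the carboxypeptidase Cpa6 at 0.528 and the sorting nexin Snx14 at 0.702, and far below for Hadha, of the mitochondrial trifunctional protein, at -0.564. Horse 4 was far below for the intermediate filament desmin (Des) at -0.535, and horse 5 far above for the mitochondrial isocitrate dehydrogenase Idh2 at 0.422.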

How the results depend on the processing

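The number of features that differed between RER horses and the pool was 0 with all arrays. It was 24 with the 2 opposed arrays left out and 35 with them turned, 2 of 8423 (0.0237%) with horses 1, 4 and 5 alone and 47 with horses 4 and 5 alone, where the horse and the number of values per array cannot be told apart. Leaving out each horse in turn gave 0 to 0 calls. Features at an unadjusted p under 0.05 ran from 399 of 13618 without horse 1 to 1706 of 20640 without horse 4. The fits without horses 4 and 5 tested 20640 and 20599 features and the others 13657 at most, so these counts have no common base. The number called was also 0 under the other settings run. Lowest adjusted p-values by limma were 0.0643 for the Cy3 arrays alone, 0.114 for the Cy5 arrays alone and 0.355 for horses 1 to 3. With the Cy3 array turned in pairs correlating below 0, that value was 0.985. For gluteus minus longissimus the count was 0 with and without the horse as a replicate block, 0 without the opposed arrays, and 0 to 0 with 1 horse left out. Of 37 list medians, 1 moved by more than the spread between horses and 7 took the other sign without the opposed arrays, against 10 and 11 with horses 4 and 5 alone and 6 and 13 with the Cy5 arrays alone. Of the 24 genes named for 1 sign in every horse and dye, whose sign the choice fixes when a horse or a dye is left out, 1, Ceacam19, was called with the opposed arrays left out or turned. The causes were not tested. Signal over background is not in the deposited ratios, so what dim spots limit is unknown.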
